A study of Mus musculus with 6 samples.

Results

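This account concerns 10 genes of haem and iron handling (Slc40a1, Tfrc, Slc11a1, Slc11a2, Fth1, Cp, Hmox1, Blvrb, Hp and Hpx) in mouse carotid arteries after wire injury. The members are all probe sets whose array annotation gives exactly 1 of these symbols. The rule found 27 probe sets for the 10 genes, out of 18193 genes that a probe set names alone. Of the 27, 3 are Affymetrix control probe sets for Tfrc, which were not tested, and 24 of the 45037 tested probe sets remained. Hmox1, Blvrb, Hp, Hpx and Slc11a1 had 1 probe set each, and the other 5 genes had 2 to 8.

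SMC-IRF9-TG mice carry full-length mouse IRF9 cDNA, with an HA tag and an SV40 polyadenylation signal, behind the SM22α promoter, which drives expression in smooth muscle cells. Line 4 was the transgenic line used in the study, and the labels do not name the line on the arrays. NTG mice are the non-transgenic controls, whose genotype label reads control. Both groups are labelled C57BL/6 (C57BL/6J in the methods), were male mice of 10 to 12 weeks by the methods, had a wire passed through the carotid artery and were sampled 14 days after that injury. Each group has 3 arrays, and each array holds 400 ng of total RNA from a pool of 3 to 5 vessels. The labels call the pools biological replicates without saying which animals entered each, so a p-value here measures pool-to-pool spread. Levels are log2 values from RMA, given in the order of pools 1, 2 and 3, and every difference is SMC-IRF9-TG minus NTG on that scale.

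Haem released from red cells or from dying cells is captured in plasma by hemopexin, and free haemoglobin by haptoglobin. Inside cells, haem oxygenase opens the haem ring and sets iron free, and biliverdin reductases act on the pigment that remains. Iron enters through the transferrin receptor and crosses endosomal and phagosomal membranes through the Slc11a transporters. It is stored in ferritin or exported through ferroportin, with ceruloplasmin oxidizing the exported iron. Macrophages that clear dead cells are known for this recycling route, and Hmox1 is a stress-response gene of the vessel wall that Bach1 represses and Nrf2 induces.

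The arrays differed in ways that the genotype does not describe. Xist, the RNA of the inactive X chromosome in female cells, was at 2.94 to 3.72 in SMC-IRF9-TG, against 9.94, 9.50 and 4.08 in NTG. High Xist in NTG pools 1 and 2 is at odds with the male mice of the methods. Sex may thus differ between the groups. A fit with a block that sets apart NTG pools 1 and 2 is given below. It leaves NTG pool 3 alone to stand for its genotype, so it cannot part sex from other traits of these pools. The poly-A control transcripts averaged 5.03 and 4.55 in SMC-IRF9-TG pools 1 and 2, against 9.14 in SMC-IRF9-TG pool 3 and 7.53 to 11.7 in the NTG pools. In NTG pool 2, the 3′ Actb control read 7.09 above the 5′ one, compared with 1.56 to 2.50 in SMC-IRF9-TG and 2.21 and 3.04 in NTG pools 1 and 3. Irf9 by probe set 1421322_a_at was 5.46, 5.41 and 5.58 in SMC-IRF9-TG, against 4.75, 5.43 and 5.36 in NTG, and whether it reads the transgene is not known here. Smooth muscle was plainly present, with Acta2 at 13.5 to 13.6 in SMC-IRF9-TG and 13.3 to 13.6 in NTG pools, and none of the 14 contractile markers passed the limma test (1 at an unadjusted p under 0.05). In pooled tissue, fewer cells of a type and less RNA per cell cannot be told apart.

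The 2 members that passed the test moved in opposite directions. Slc40a1, the iron exporter, was higher in SMC-IRF9-TG arteries, and Hmox1, which breaks haem down, was lower. The other 22 of 24 probe sets did not pass at an adjusted p of 0.05 over the whole array (limma, Benjamini-Hochberg). Over all tested probe sets, 2.37% were called higher and 0.373% were called lower, 2.75% together. At an unadjusted p under 0.05, 7 of the 24 were past the threshold, against 22.3% of all probe sets. The SMC-IRF9-TG pools lay wholly above the NTG pools in 3 member probe sets (12.1% over the array) and wholly below in 6 (19.2% over the array), and 31.4% of all probe sets did not overlap in either direction. The median difference was -0.15 over the 24 probe sets and 0.09 over the probe set of highest mean of each gene, beside -0.13 over all probe sets. The 2 called probe sets were 8.33% of the 24. No test of this share was run, and 2 probe sets are too few to set the 10 genes apart from the rest of the array.

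**Figure D1:**
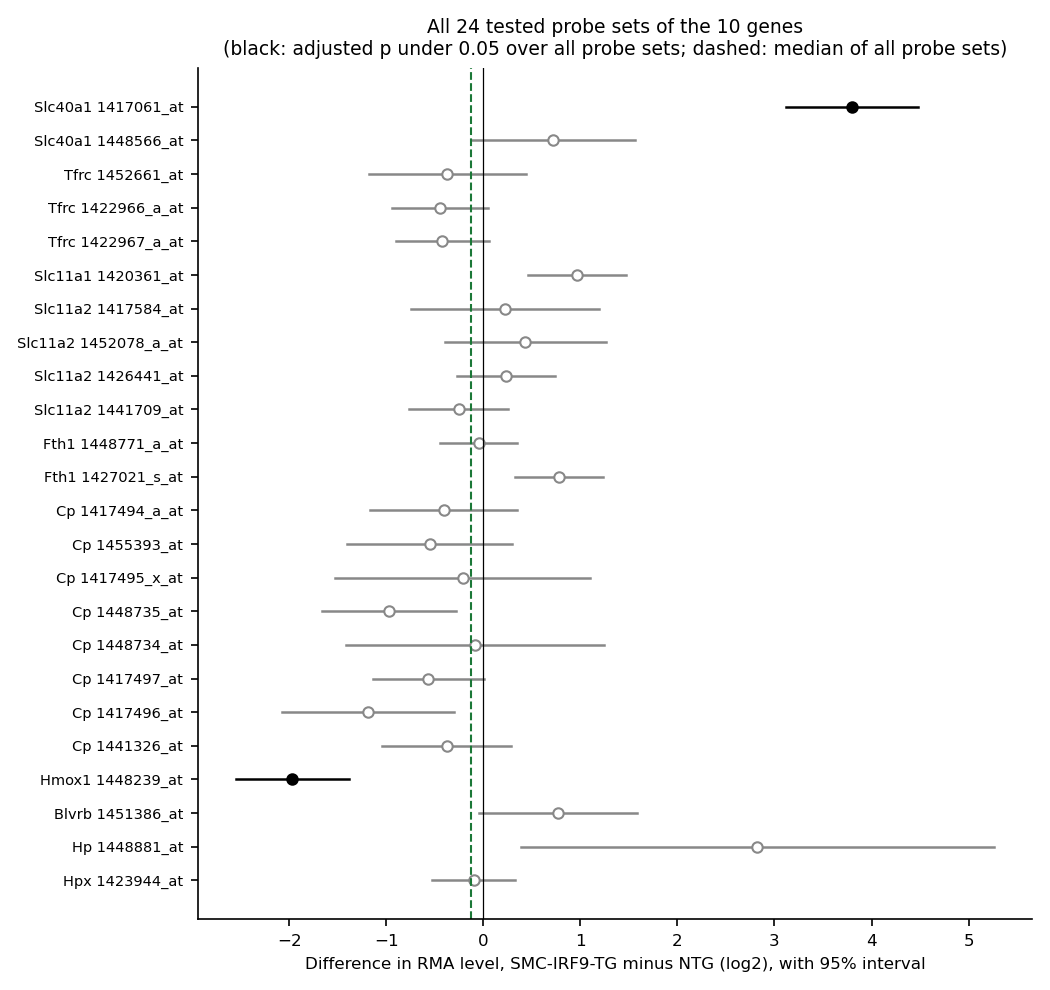
Difference in RMA level between SMC-IRF9-TG and NTG pools (log2, x axis) for each of the 24 tested probe sets (y axis), with its 95% interval from limma, n = 3 pools per group. Black points passed the adjusted threshold, and they are Slc40a1 1417061_at at 3.80 and Hmox1 1448239_at at -1.97; the dashed line is the median of all probe sets, -0.13.

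Slc40a1 encodes ferroportin, the known exporter of iron from vertebrate cells. By probe set 1417061_at it read 6.36, 6.69 and 6.48 in SMC-IRF9-TG, against 2.11, 3.29 and 2.73 in NTG. All 3 transgenic pools lay more than 3 log2 units above the highest NTG pool, and they were closer to each other than the NTG pools were. The means were 6.51 ± 0.17 in SMC-IRF9-TG and 2.71 ± 0.59 in NTG (SD, n = 3 pools each), a difference of 3.80 (standard error 0.30, 95% interval 3.12 to 4.48) or 13.9-fold, with a limma adjusted p of 9.2e-04. The NTG mean was 0.09 above the mean lower quartile of the NTG arrays, 2.62, and no detection call was used here, so the level of Slc40a1 in NTG arteries may not lie above background and the size of the difference is uncertain.

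A second Slc40a1 probe set, 1448566_at, gave a smaller difference. It read 3.77, 3.75 and 3.91 in SMC-IRF9-TG, against 3.04, 2.29 and 3.94 in the NTG pools. The groups overlapped, since NTG pool 3 lay just above the transgenic pools. The limma difference was 0.72 (standard error 0.37, adjusted p = 0.279), and with the mean of both probe sets Slc40a1 differed by 2.26 (adjusted p = 0.00327). Which part of the transcript each probe set reads is not known here.

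Macrophage markers were higher in the same arteries. Of 22 measured markers 17 passed the test as higher and none as lower, with a median difference of 3.62. Their mean level ran from 7.19 to 7.44 in the SMC-IRF9-TG pools and from 3.88 to 4.58 in the NTG pools. Tyrobp, an adaptor of myeloid receptors, read 8.81, 8.69 and 8.68 in SMC-IRF9-TG and 3.08, 2.62 and 4.21 in NTG, and Lyz2, the macrophage lysozyme, differed by 5.05. Cd163, the macrophage receptor for haptoglobin-haemoglobin complexes, read 2.05, 1.97 and 2.25 in SMC-IRF9-TG and 2.20, 3.23 and 2.17 in NTG (limma adjusted p = 0.391). Its mean lay below the lower quartile in both groups, so it cannot show whether Cd163 followed the macrophage markers. Fibroblast and matrix markers were also higher, in 6 of 12, while Lpl among 11 adipocyte markers and Tie1 among 13 endothelial ones were the only calls in those lists. The part of these cell types in the Slc40a1 difference was not tested.

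**Figure D2:**
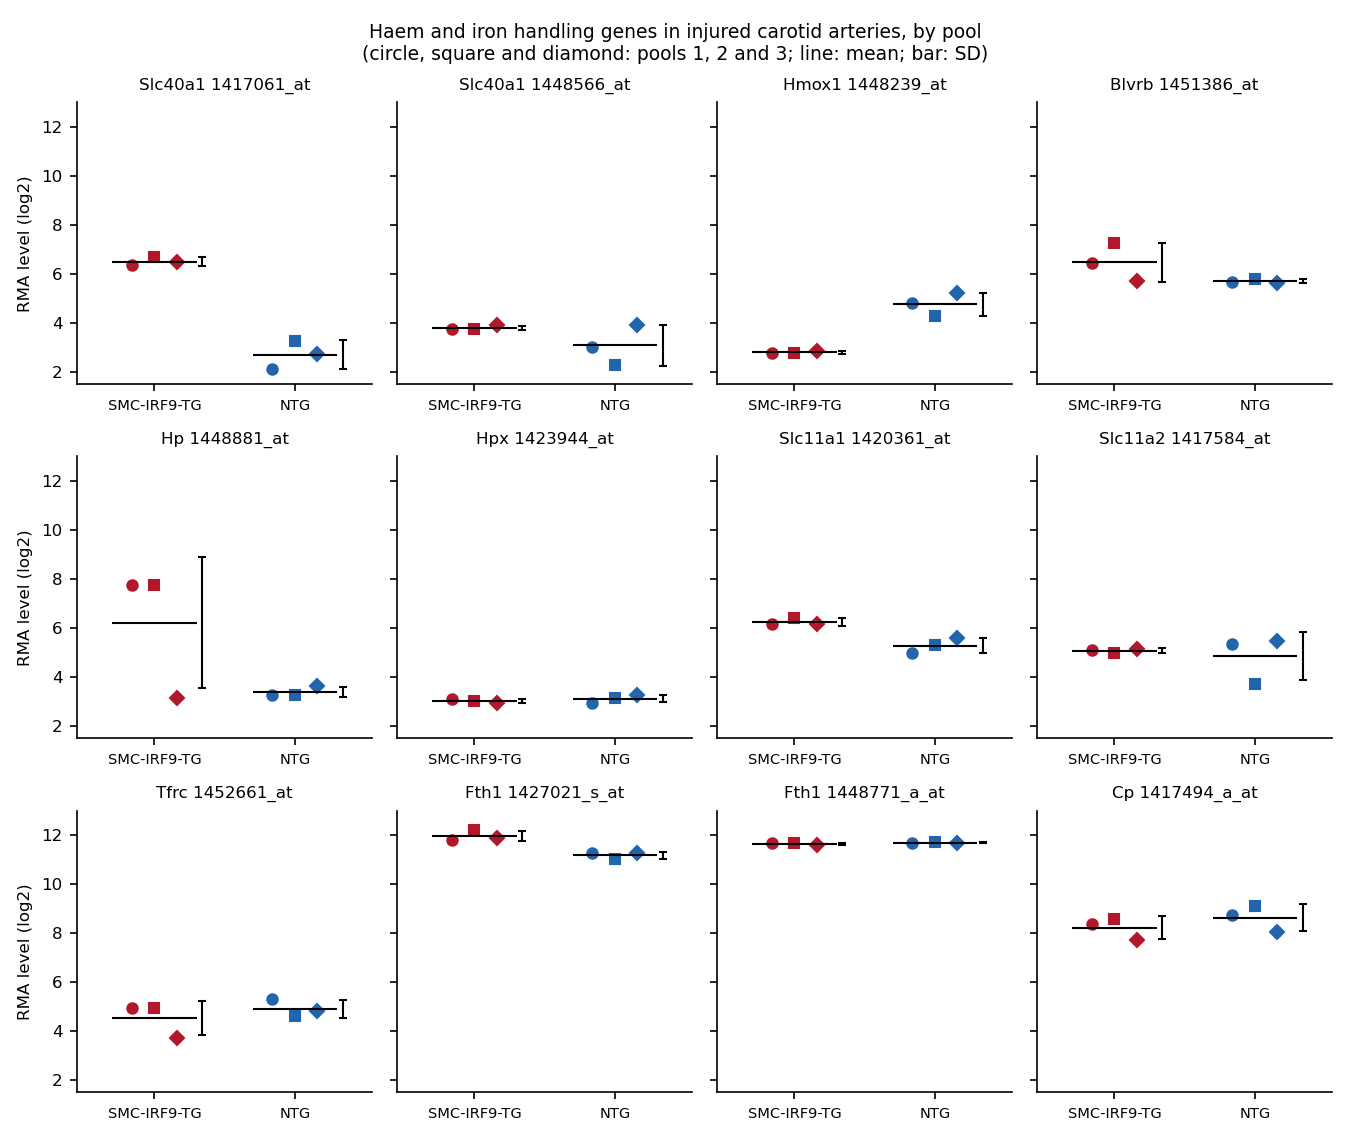
RMA level (log2, y axis) of 12 probe sets of the 10 genes in SMC-IRF9-TG and NTG pools, with pools 1, 2 and 3 as circle, square and diamond, the mean as a line and the SD as a bar. The groups are well apart for Slc40a1 1417061_at and Hmox1, while Hp is high in SMC-IRF9-TG pools 1 and 2 alone, at 7.76 and 7.75.

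Hmox1 encodes the inducible haem oxygenase, which opens haem and releases iron, carbon monoxide and biliverdin. Its only probe set, 1448239_at, read 2.80, 2.76 and 2.85 in SMC-IRF9-TG, against 4.82, 4.27 and 5.22 in NTG. The transgenic pools lay within 0.09 of each other and all below the lowest NTG pool. The means were 2.80 ± 0.04 in SMC-IRF9-TG and 4.77 ± 0.48 in NTG, a difference of -1.97 (standard error 0.26, 95% interval -2.55 to -1.38), which is 3.91-fold lower with a limma adjusted p of 0.00799. The transgenic mean was 0.42 above the mean lower quartile of its arrays, 2.38, so the size of this difference rests on a dim level. The call was lost without SMC-IRF9-TG pool 2 (adjusted p = 0.0515) and with a block that sets apart SMC-IRF9-TG pools 1 and 2, whose poly-A controls were low (the poly-A block, adjusted p = 0.214), at nearly the same difference.

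The lower Hmox1 level stood beside higher macrophage markers, given above. Red-cell markers had a mean level over 13 genes of 3.30 to 3.52 in SMC-IRF9-TG pools and 3.58 to 3.84 in NTG pools. Their levels were uneven over the 6 arrays, from 1.57 to 2.16 for Rhag to 5.19 to 6.09 for Ank1. None of the 13 markers passed the limma test (3 at an unadjusted p under 0.05, beside 22.3% of all probe sets). Their part in the Hmox1 difference was not tested, and probe sets shared by several globin genes were given no name.

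Blvrb, the biliverdin reductase that also reduces flavins, was not called. It read 6.44, 7.28 and 5.71 in SMC-IRF9-TG and 5.66, 5.80 and 5.65 in the NTG pools. Transgenic pools 1 and 2 were above every NTG pool, and pool 3 lay among them. The difference was 0.77 (standard error 0.36, adjusted p = 0.243 from limma). With the poly-A block, which leaves SMC-IRF9-TG pool 3 to stand for its genotype, the difference was 0.0011. The constitutive haem oxygenase Hmox2 and the other reductase, Blvra, differed by -0.22 (adjusted p = 0.595) and -0.11 (adjusted p = 0.791).

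Hp, the haemoglobin scavenger haptoglobin, split the transgenic group. Probe set 1448881_at read 7.76, 7.75 and 3.15 in SMC-IRF9-TG, against 3.27, 3.28 and 3.64 in NTG. Transgenic pools 1 and 2 were near each other and far from pool 3, which lay below all NTG pools. The group means were 6.22 ± 2.66 in SMC-IRF9-TG and 3.40 ± 0.21 in NTG, a difference of 2.82 with a standard error of 1.07 (limma, adjusted p = 0.178), which is less than the range of 4.61 among the transgenic pools. Without SMC-IRF9-TG pool 3 the Hp difference was 4.36 (limma adjusted p = 0.00136). With the poly-A block, which leaves pool 3 to stand for its genotype, it was -0.25. Both results follow from the split, since pool 3 was the only low transgenic pool, so neither tests the genotype. A range that wide among the transgenic pools was found in 15 probe sets, 0.0333% of those tested.

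The probe sets most like Hp were sought as those in which SMC-IRF9-TG pools 1 and 2 both lay at least 2 log2 units above the other 4 arrays, a rule chosen after the Hp values were seen. There were 12, and Hp stood in position 4 by the gap, which was 4.11. The largest gap, 4.59, was that of Lcn2, the siderophore-binding lipocalin of neutrophil granules, at 7.80, 7.83 and 3.21 in SMC-IRF9-TG and 3.01, 2.04 and 2.37 in NTG. S100a8, a calcium-binding protein abundant in neutrophils, read 8.84, 9.99 and 4.34 in SMC-IRF9-TG and 3.42, 4.07 and 2.56 in NTG, and its partner S100a9 had a gap of 3.36. The other 8 probe sets of this pattern name Col2a1, Col9a1, Col11a1 (by 2 probe sets), Cnmd, Prg4, Penk and C1qtnf3, of which the collagens are known from cartilage.

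Neutrophil markers followed the same split only in part. Of 14 measured markers, 5 (Camp, Lcn2, Ngp, S100a8 and S100a9) lay 2 or more log2 units higher in SMC-IRF9-TG pools 1 and 2 than in pool 3. Such a gap was seen in 19 of all 45037 probe sets. The split was taken from the Hp values, and Lcn2, S100a8 and S100a9 had already been found by it. The count is thus a description and no test of these markers. The mean over the 14 was 5.04 and 5.29 in SMC-IRF9-TG pools 1 and 2, 3.42 in pool 3 and 3.42 to 3.46 in the NTG pools. Cxcr2, the chemokine receptor of neutrophils, read 2.97, 2.86 and 2.87 in SMC-IRF9-TG and 3.29, 3.12 and 3.48 in NTG, and Mmp8, a granule collagenase, ran from 3.05 to 3.12 in SMC-IRF9-TG and from 2.60 to 3.18 in NTG. Mpo and Prtn3 were graded, at 4.90, 4.26 and 3.14 and at 5.53, 4.43 and 3.76 in SMC-IRF9-TG. Their NTG pools read 2.80 to 2.91 and 3.81 to 4.12. Ltf was above the NTG pools in SMC-IRF9-TG pool 2 alone, and Elane, Csf3r, Ltb4r1 and Stfa2l1 did not have the split of Hp. None of the 14 markers passed the limma test, and 5 had an unadjusted p under 0.05, beside 22.3% of all probe sets. Their part in the Hp values was not tested. The poly-A controls were low in the same pools in which Hp was high, so the poly-A block cannot tell the 2 apart.

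**Figure D3:**
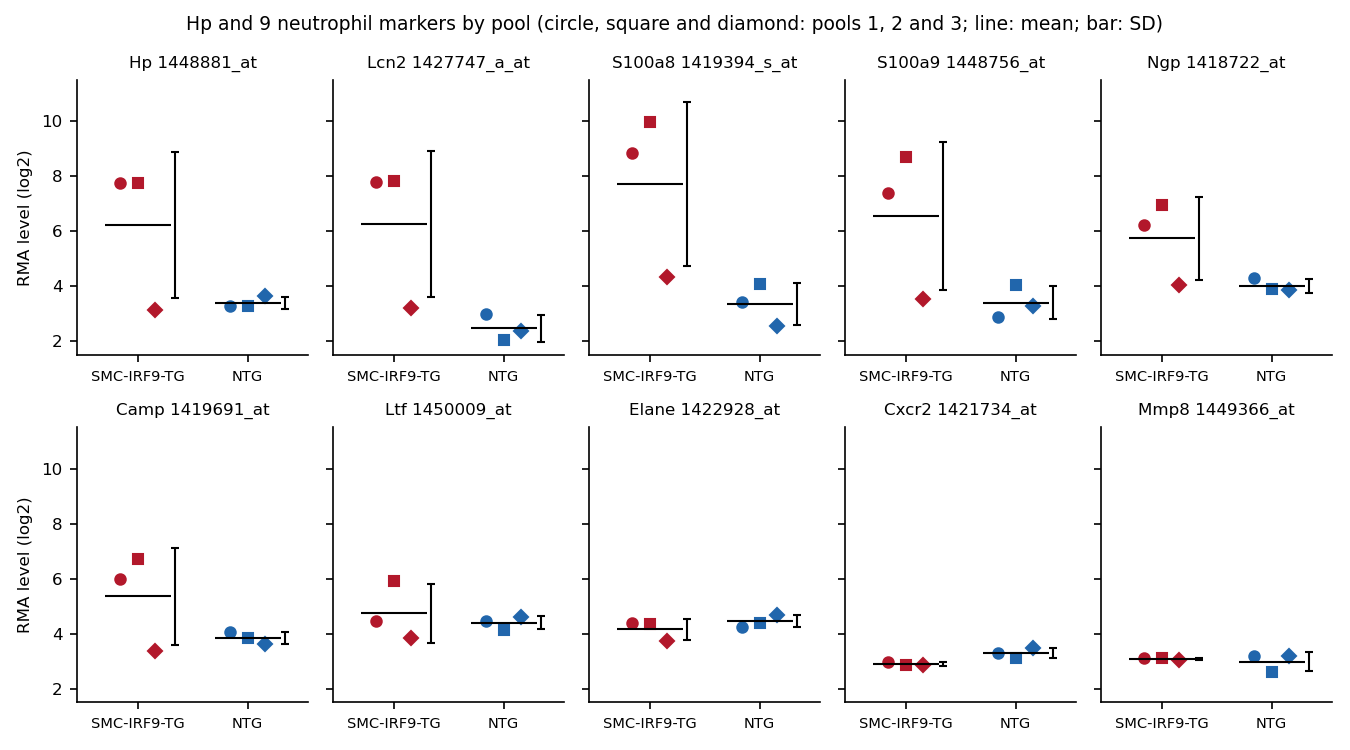
RMA level (log2, y axis) of Hp and 9 neutrophil markers in SMC-IRF9-TG and NTG pools, with pools 1, 2 and 3 as circle, square and diamond, the mean as a line and the SD as a bar. Hp, Lcn2, S100a8, S100a9, Ngp and Camp are high in SMC-IRF9-TG pools 1 and 2, Ltf in pool 2 alone, and Elane, Cxcr2 and Mmp8 in neither. The 9 markers were picked from 14 measured ones after their values were seen.

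Hpx, the plasma scavenger of free haem, did not pass the test. It read 3.11, 3.04 and 2.93 in SMC-IRF9-TG and 2.96, 3.14 and 3.27 in NTG, and the groups overlapped. The difference was -0.10 (standard error 0.19, 95% interval -0.52 to 0.33, adjusted p = 0.763 from limma). Hp and Hpx are both made by the liver. The mean of 13 hepatocyte markers was 2.82 to 3.05 in SMC-IRF9-TG and 3.11 to 3.35 in NTG pools. None of these markers was called by limma, and 3 had an unadjusted p under 0.05, beside 22.3% of all probe sets.

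Slc11a1, the divalent metal transporter of macrophage phagosomes, did not pass the test. Its transgenic pools all lay above the NTG pools, a separation that 12.1% of all probe sets had. Probe set 1420361_at read 6.16, 6.42 and 6.17 in SMC-IRF9-TG, against 4.97, 5.30 and 5.59 in NTG. The gap between the groups was smaller than the range within NTG. Macrophage markers were higher in these pools, as given beside Slc40a1, and their part in the Slc11a1 values was not tested. The difference was 0.96 (standard error 0.22, 95% interval 0.46 to 1.47, adjusted p = 0.062 from limma). It passed in 3 of 15 alternatives. These were each array centred on its median (1.06, adjusted p = 0.0356), array weights (adjusted p = 0.0453) and NTG pool 3 left out (1.12, adjusted p = 0.0385). With quantile normalization it was 0.68 (adjusted p = 0.184 from limma).

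RefSeq promoter windows, running from 250 bases before a start to 50 after it (GRCm38.p6), matched 6 of the 10 genes by symbol: Slc11a1, Fth1, Cp, Tfrc, Blvrb and Hpx, with 10 windows among them. Hmox1, Slc40a1, Hp and Slc11a2 had no entry. IRF9 is known to bind elements built of spaced GAAA repeats. The spaced form GAAANNGAAA, searched on both strands, was in none of the 10 windows and in 3.44% of all 32851. A single GAAA was in 9 of the 10 and in 89.2% of all windows. The motif TGANNNNGC, the core of the antioxidant element that Nrf2 and Bach1 bind, was in 4 windows of Slc11a1, Blvrb and Hpx and in 41.3% of all. The stretches below are shown for the 2 members with a probe set whose transgenic pools lay wholly above NTG without passing the test, which for Fth1 holds for 1 of its 2 probe sets. They hold the GAAA copies closest together in the window of Slc11a1 (chr1:74375083-74375182, plus strand) and the only one in that of Fth1 (chr19:9982466-9982565, plus strand), with GAAA or its reverse complement in capitals.
Slc11a1: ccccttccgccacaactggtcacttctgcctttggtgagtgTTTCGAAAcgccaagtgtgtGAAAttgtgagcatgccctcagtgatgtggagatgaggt
Fth1: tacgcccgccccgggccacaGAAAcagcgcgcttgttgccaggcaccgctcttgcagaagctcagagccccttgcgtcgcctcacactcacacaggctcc
These letters are a description of the windows, and no binding was measured here.

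Slc11a2, which moves iron out of endosomes and into gut cells, did not pass in any of 4 probe sets, and none had an unadjusted p under 0.05. Probe set 1417584_at, of highest mean, read 5.12, 4.98 and 5.14 in SMC-IRF9-TG and 5.36, 3.73 and 5.47 in NTG. The transgenic pools were tight and NTG pool 2, the pool with the widest 3′ to 5′ gap of Actb, was low. The difference was 0.23 (standard error 0.43, adjusted p = 0.761 from limma), and it was -0.34 without NTG pool 2. By 1452078_a_at, NTG pool 2 was low again, at 2.64 beside 4.18 and 3.79. The remaining probe sets differed by 0.24 and -0.25, and all 4 overlapped between groups.

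Tfrc, the transferrin receptor that brings iron into cells, did not pass in any of 3 tested probe sets, also without adjustment. Probe set 1452661_at read 4.94, 4.94 and 3.73 in SMC-IRF9-TG and 5.30, 4.61 and 4.81 in NTG. Transgenic pool 3 was the lowest of the 6 and pools 1 and 2 lay inside the NTG range. The difference was -0.37 (standard error 0.36, adjusted p = 0.536 from limma), and it was 0.03 without SMC-IRF9-TG pool 3. The other probe sets, 1422966_a_at and 1422967_a_at, lay below the lower quartile in both groups, and their transgenic pools were below all NTG pools, with differences of -0.44 and -0.42 (adjusted p = 0.259 and 0.265). Of all probe sets, 19.2% lay wholly below in this way. The 3 control probe sets for Tfrc read 1.31 to 1.75 in SMC-IRF9-TG and 1.75 to 2.22 in NTG pools.

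Fth1 encodes the heavy chain of ferritin, which stores iron, and its 2 probe sets disagreed. By 1427021_s_at it read 11.8, 12.2 and 11.9 in SMC-IRF9-TG, against 11.3, 11.0 and 11.3 in NTG, and the transgenic pools all lay above the NTG pools. That difference was 0.78 (standard error 0.20, 95% interval 0.33 to 1.24, adjusted p = 0.0819 from limma). It passed in 1 of 15 alternatives, a trended and robust variance prior (adjusted p = 0.0432). By 1448771_a_at it read 11.66, 11.66 and 11.60 in SMC-IRF9-TG and 11.67, 11.72 and 11.67 in NTG. Here the transgenic pools all lay below the NTG pools, at a difference of -0.05 (standard error 0.17, 95% interval -0.44 to 0.35, adjusted p = 0.887). Of all probe sets, 12.1% lay wholly above and 19.2% wholly below in this way. The mouse genome holds processed copies of Fth1, and the s in the name of the first probe set marks probes shared by more than 1 transcript, so its level is uncertain as a measure of this gene.

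Cp, ceruloplasmin, is the copper enzyme that oxidizes iron as it leaves cells. All 8 of its probe sets had a negative difference, from -1.19 to -0.09, and none passed (lowest adjusted p = 0.127 from limma). At an unadjusted limma p under 0.05 were 2 of the 8, beside 22.3% of all probe sets. The probe set of highest mean, 1417494_a_at, read 8.38, 8.58 and 7.70 in SMC-IRF9-TG and 8.74, 9.11 and 8.03 in NTG. The third pool was the lowest of each group, and the groups overlapped at a difference of -0.41 (standard error 0.33, adjusted p = 0.465). The 8 probe sets share 1 gene symbol and the same pools, so they are not independent, and 1441326_at lay below the lower quartile in both groups.

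The SMC-IRF9-TG pools lay wholly below the NTG pools in 2 of the 8 Cp probe sets, beside 19.2% of all tested probe sets. By 1448735_at, Cp read 5.97, 6.19 and 5.63 in SMC-IRF9-TG and 6.94, 7.44 and 6.32 in NTG (difference -0.97, adjusted p = 0.127). By 1417497_at, it read 4.99, 5.06 and 4.73 in SMC-IRF9-TG and 5.94, 5.45 and 5.10 in NTG (difference -0.57, adjusted p = 0.227). NTG pools 1 and 2, those with high Xist, were both above NTG pool 3 in 7 of the 8 probe sets, by up to 2.20. With a block for high Xist, which leaves NTG pool 3 to stand for its genotype, the Cp difference was positive in 3 probe sets, and the lowest adjusted p was 0.185. Without NTG pool 3 the difference by 1448735_at was -1.26 (adjusted p = 0.0479), and without SMC-IRF9-TG pool 2 that by 1417496_at was -1.67 (adjusted p = 0.0467). Each of these 2 probe sets passed in only 1 of 15 alternatives.

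Other genes of the pathway, taken by the probe set of highest mean, were mostly not called. Of 97 listed genes 89 were measured, with 3 higher and 2 lower, beside 3.11% of all genes called higher and 0.511% called lower by the same rule. The median difference over the 89 was 0.15. None passed among 10 genes of haem synthesis, 15 of haem breakdown, transport and scavenging and 14 of iron-sulphur cluster assembly, where 2, 2 and 4 genes had an unadjusted limma p under 0.05. In the lists of iron uptake, storage and export, of iron regulation and of the Nrf2 and Bach1 axis, 7 of 18, 8 of 15 and 6 of 17 did. Over all tested probe sets the share at this unadjusted threshold was 22.3%. The independent-sample test that the methods name, run here with equal variances, called none of the 89 after adjustment, and neither did the poly-A block or a block for the NTG pools with high Xist. Slc25a39, a mitochondrial carrier needed for haem synthesis, differed by 0.32 (adjusted p = 0.431 from limma), and Urod, a decarboxylase of the haem pathway, by -0.66 (adjusted p = 0.174). Pgrmc1, a haem-binding membrane protein, differed by 0.24 (adjusted p = 0.474), and Iscu, the scaffold of iron-sulphur clusters, by 0.10 (adjusted p = 0.86).

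Among 18 genes of iron uptake, storage and export, Pcbp1, an RNA-binding protein that also delivers iron to ferritin, was the only one called. It read 9.40, 9.21 and 9.48 in SMC-IRF9-TG and 8.39, 7.93 and 8.53 in NTG, a difference of 1.08 with a standard error of 0.22 (limma, adjusted p = 0.0427). It passed in 6 of 16 alternatives, and the call was lost when any of the SMC-IRF9-TG pools, NTG pool 1 or NTG pool 2 was left out (adjusted p = 0.0505 to 0.171) and with the poly-A block (adjusted p = 0.489). Lcn2 had the largest difference in this list, 3.81, without passing (adjusted p = 0.105), and its SMC-IRF9-TG pool 3 lay near the NTG pools.

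Of 15 genes of iron regulation, 1 rose and 1 fell. Id1, a known target of BMP signalling, read 9.24, 9.44 and 9.77 in SMC-IRF9-TG and 7.89, 8.05 and 8.03 in NTG (difference 1.49, standard error 0.21, adjusted p = 0.0099 from limma). Hjv, the BMP co-receptor hemojuvelin, read 4.27, 4.37 and 4.84 in SMC-IRF9-TG and 5.46, 5.58 and 5.52 in NTG (difference -1.03, adjusted p = 0.0435). Id1 passed in 11 of 16 alternatives, and its call was lost without SMC-IRF9-TG pool 2 (adjusted p = 0.0573) or pool 3 (adjusted p = 0.0524) and with either block (adjusted p = 0.101 and 0.117). The Hjv call was lost without any 1 of the 6 pools (adjusted p = 0.0593 to 0.195) and held in 2 of 16 alternatives. Ireb2, the iron regulatory protein that controls Tfrc and ferritin mRNAs, had every transgenic pool above the NTG pools without passing (difference 1.02, adjusted p = 0.0569). Over all probe sets, 12.1% had such a separation. Hamp, the liver hormone hepcidin that degrades ferroportin, was dim, at 2.02 to 2.27 in SMC-IRF9-TG and 2.48 to 2.74 in NTG.

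Of 17 genes on the Nrf2 and Bach1 axis, which controls Hmox1, Mafg was higher and G6pd2 lower. Mafg, the small Maf partner of both factors, read 5.86, 5.65 and 5.91 in SMC-IRF9-TG and 4.27, 3.31 and 4.55 in NTG (difference 1.76, standard error 0.31, adjusted p = 0.0267 from limma). Bach1, the haem-sensing repressor of Hmox1, read 7.99, 7.28 and 7.40 in SMC-IRF9-TG and 5.72, 6.61 and 6.49 in NTG. All transgenic pools were above all NTG pools, at a difference of 1.29 that did not pass (standard error 0.30, adjusted p = 0.0636). Nfe2l2, which encodes Nrf2, differed by 0.63 (adjusted p = 0.193). Of its targets in the list, Txnrd1, a thioredoxin reductase, and Gsr, glutathione reductase, had every transgenic pool above the NTG pools without passing, at 0.83 (adjusted p = 0.0657) and 0.35 (adjusted p = 0.338). The separation seen in Bach1, Txnrd1 and Gsr was found in 12.1% of all probe sets. The groups overlapped for Nqo1, Gclc, Gclm, Srxn1, Slc7a11, Me1 and Taldo1, with differences from -0.53 to 0.24. G6pd2, a near copy of the X-linked glucose-6-phosphate dehydrogenase gene, lay below the lower quartile of its arrays in SMC-IRF9-TG and differed by -0.98 (adjusted p = 0.0355), and its probes may read both copies. Mafg passed in 7 of 16 alternatives and G6pd2 in 6 of 15. Either block ended both calls, as did leaving out SMC-IRF9-TG pool 1, 2 or 3 or NTG pool 1, with adjusted p from 0.0696 to 0.104 for Mafg and from 0.0872 to 0.167 for G6pd2 when a pool was left out.

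**Figure D4:**
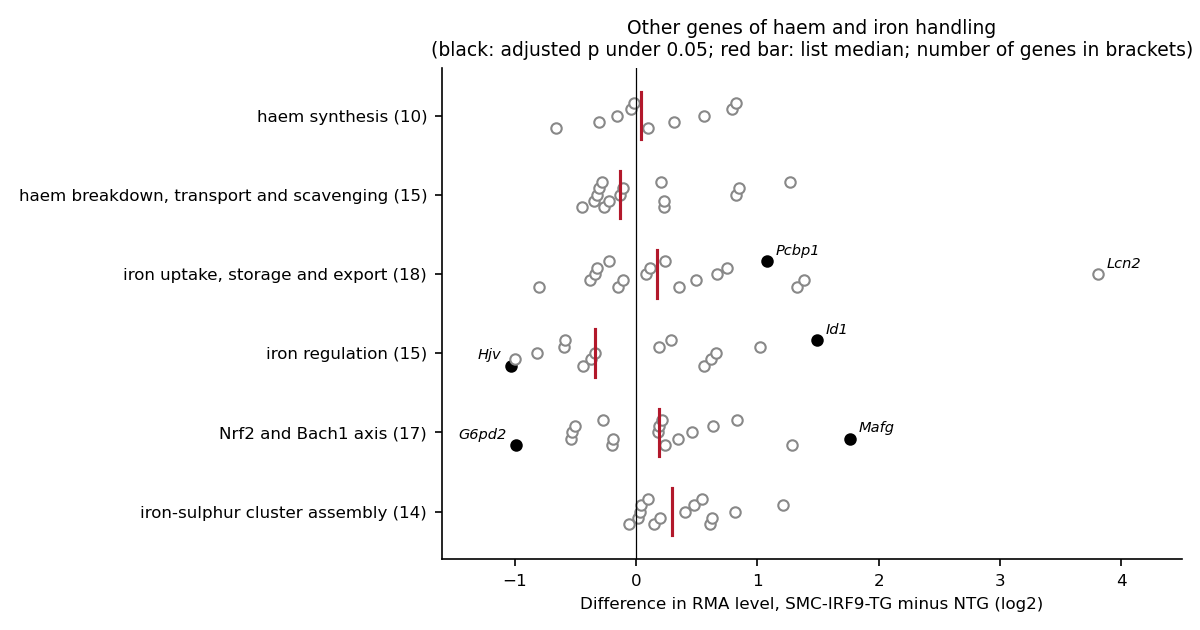
Difference in RMA level between SMC-IRF9-TG and NTG pools (log2, x axis) for 89 genes in 6 lists of haem and iron handling (y axis), n = 3 pools per group, 1 point per gene. Black points passed the adjusted threshold (Pcbp1, Id1 and Mafg higher, Hjv and G6pd2 lower), the red bars are list medians, and Lcn2 at 3.81 did not pass.

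The 2 called members were tried under 15 alternatives each. Slc40a1 by 1417061_at stayed between 3.50 and 4.09 and passed in 14, missing with the independent-sample test of the methods (adjusted p = 0.0952). Hmox1 stayed between -2.42 and -1.74 and passed in 12, missing with that same test (adjusted p = 0.12) and in the settings given with its values. With the block for high Xist, Slc40a1 by 1417061_at differed by 3.78 and Hmox1 by -2.42. An exact permutation test of 3 pools against 3 cannot give a 2-sided p below 0.1, and both probe sets gave 0.1.

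**Figure D5:**
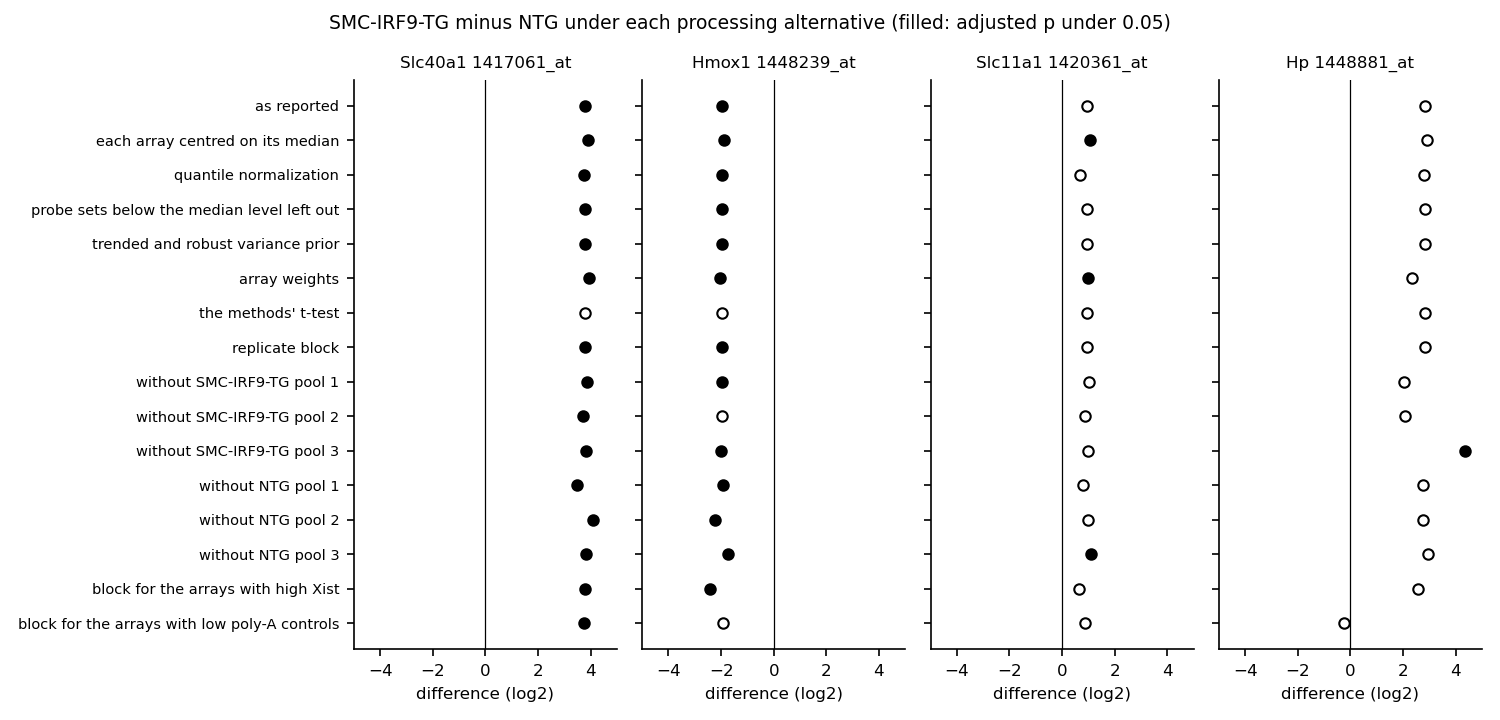
Difference in RMA level between SMC-IRF9-TG and NTG pools (log2, x axes) for 4 probe sets as reported and under 15 alternatives (y axis); filled points have an adjusted p under 0.05. Slc40a1 keeps to 3.50 to 4.09 and Hmox1 to -2.42 to -1.74, while Hp runs from -0.25 to 4.36.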

How the data were processed

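Total RNA of 6 pools of injured carotid arteries was measured on Affymetrix arrays. The authors deposited log2 levels per probe set. The submitters' processing notes name RMA and Affymetrix Expression Console, with versions not given in the sources used here. In general RMA subtracts background and normalizes arrays by quantiles, yet array medians still ran from 3.42 to 3.66. Lower quartiles were 2.33 to 2.41 in SMC-IRF9-TG arrays and 2.57 to 2.66 in NTG arrays. Upper quartiles were 5.25 to 5.33 in SMC-IRF9-TG arrays and 4.97 to 5.08 in NTG arrays. The spread of levels thus differed by group, and its part in small differences at dim levels was not tested. Scanner files and detection calls were not used here, so dim levels may not exceed background. No further normalization or filter was applied. Groups came from GEO's titles.

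Of 45101 probe sets, 64 controls were left out. Of the 45037 tested, 34945 name 1 gene, 932 several and 9160 none, and only those naming 1 gene were used by name. limma 3.58.1 (lmFit, eBayes) in R 4.3.3 compared SMC-IRF9-TG with NTG, 2-sided, with Benjamini-Hochberg adjustment over all 45037. The methods give a t-test for 2 groups and no array method, so that t-test, run with equal variances, was an alternative. Exact permutation tests used scipy 1.17.1. The fit was tested on simulated data first. The 6 arrays limit the precision.

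The members and gene lists were chosen with earlier results of these data known. Text names all members, in each pathway list up to 4 called genes of largest change (or the 2 of highest level where none passed), and in marker lists up to 2. Cd163, Hmox2, Blvra, Lcn2, Ireb2, Hamp, Bach1, Nfe2l2, its targets, Acta2, the neutrophil markers and the genes with a pattern like Hp were named after their values were seen, and not every gene under the rule is printed. Promoter sequences are RefSeq's (GRCm38.p6). Alternatives were other normalizations, a filter on dim probe sets, other variance models, blocks, each pool left out, and means over probe sets.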

Additional observations from a re-analysis of the deposited data

How the results depend on the processing

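The replicate number as a block gave 1 member probe set higher and 1 lower, and over all probe sets 659 higher and 71 lower, against 1069 and 168 without it. Same-numbered pools did not deviate together (r of deviations across probe sets -0.15, -0.0006 and 0.027). With 3 pools per group this cannot exclude that same-numbered pools were handled together. The fit without the block is the one reported. Over all probe sets, other settings gave 547 higher (quantile normalization), 0 higher and 1 lower (the methods' t-test), 174 and 18 (block for high Xist), 52 and 3 (block for low poly-A controls) and 111 lower (each array centred on its median). Leaving out 1 pool gave 297 to 1268 higher and 23 to 583 lower.

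Member probe sets called higher numbered 2 with centring, the trended and robust prior or array weights and 0 with the methods' t-test, and called lower 0 with that t-test or the poly-A block. Leaving out 1 pool gave 1 to 2 in each direction. Pathway genes called higher numbered 6 with centring, 5 with dim probe sets left out or array weights, 1 with quantile normalization and 0 with the methods' t-test or either array block. Called lower were 1 with centring, quantile normalization, the dim filter, the trended prior, array weights or gene means, and 0 with the methods' t-test or any block, the replicate block included. Leaving out 1 pool gave 0 to 4 higher and 0 to 2 lower.

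Signs turned for members that were not called. With the Xist block Cp differed by 0.18 (1417494_a_at), 1.27 (1417495_x_at) and 1.39 (1448734_at), Slc11a2 1417584_at by -0.39 and Slc40a1 1448566_at by -0.13. Without 1 pool, Cp 1417495_x_at ran from -0.95 to 0.30, with 0.04 (without SMC-IRF9-TG 3) and 0.015 (NTG 1), and Cp 1448734_at from -0.82 to 0.29, with 0.24 and 0.28. Slc11a2 1417584_at ran from -0.34 (without NTG 2) to 0.53 and 1452078_a_at from -0.014 (NTG 2) to 0.76, and Tfrc 1452661_at from -0.57 to 0.033 (SMC-IRF9-TG 3). Centring gave 0.0076 for Cp 1448734_at and 0.049 for Fth1 1448771_a_at, quantile normalization 0.082 for Hpx 1423944_at, the mean of both Fth1 probe sets 0.37, and the poly-A block -0.25 for Hp. The causes were not tested. Centring moved the median of all probe sets by 0.09 and quantile normalization by 0.08. The Xist block leaves 1 NTG pool and the poly-A block 1 SMC-IRF9-TG pool to carry the comparison. Dim levels, with no detection calls used, limit Hmox1, Hpx, Slc40a1 in NTG, 2 Tfrc probe sets, Cp 1441326_at and, outside the members, Cd163.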

Other observations

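The pools that held high Hp also held high levels of several matrix genes. Among the 12 probe sets with SMC-IRF9-TG pools 1 and 2 at least 2 log2 units above the other 4 arrays, Col2a1, the main collagen of cartilage, read 9.04, 11.71 and 5.35 in SMC-IRF9-TG (pools 1, 2 and 3), against 3.94, 3.35 and 3.12 in NTG. Cnmd, which encodes the cartilage protein chondromodulin, read 6.67, 8.90 and 1.74 in SMC-IRF9-TG and 2.39, 2.46 and 2.47 in NTG. Prg4, the joint lubricant lubricin, read 7.69, 7.36 and 3.38 in SMC-IRF9-TG and 1.92, 3.97 and 2.09 in NTG. Unlike Hp, Lcn2 and Prg4, which were close in the first 2 transgenic pools, Col2a1 and Cnmd were over 2 log2 units higher in pool 2 than in pool 1. These genes were chosen after their values were seen.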
